A study of Homo sapiens with 7 samples.

Results

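The collagens, laminins and matrix glycoproteins examined here were 50 named genes that encode chains of the extracellular matrix, and they were found by gene name among the non-control probes of the array. They had 69 probes, of 42405 probes and 34809 gene names in all, and 13 of the genes had several probes. The 50 genes were grouped by role into fibrillar collagens (5), network-forming collagens (7), type VI collagen (3), other collagens (5), laminin chains (8), basement membrane linkers (4), matricellular and adhesive glycoproteins (10), elastic fibre proteins (4) and matrix proteoglycans (4). RefSeq listed 48 of them under the array's name and the other 2, CTGF and CYR61, under the current names CCN2 and CCN1.

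ACHN is an established human renal cell carcinoma line, and total RNA from 7 ACHN samples was hybridized to single-colour Agilent arrays. ACHN-EV (4 samples, EV 1 to EV 4) carried the empty pBabe-hygro retroviral vector, and ACHN-HOTAIR (3 samples, HOTAIR 1 to HOTAIR 3) carried the same vector with the cDNA of HOTAIR, a long noncoding RNA transcribed from the HOXC cluster. Both groups were cells infected with retrovirus from the Plat-A packaging line and selected with hygromycin, with no untransduced ACHN sample beside them. The labels did not say whether the samples of a group came from separate cultures or infections, so p-values measured only the spread between these samples, which may be technical. The comparison asked which genes differ in level when HOTAIR is overexpressed.

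Basement membranes are sheets in which a laminin network, assembled from an alpha, a beta and a gamma chain, lies beside a type IV collagen network, and nidogens and the heparan sulfate proteoglycans perlecan and agrin link them. Fibrillar collagens and small leucine-rich proteoglycans such as decorin belong to the interstitial matrix that fibroblasts lay down, and fibrillins and fibulins belong to elastic fibres. In the kidney, tubular epithelium rests on a basement membrane, and the glomerular membrane has its own type IV collagen chains.

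The HOTAIR probe was well above background on no EV array and on all 3 HOTAIR arrays. Its level was −2.98 ± 0.35 on the HOTAIR arrays (mean ± SD, n = 3), and no test is given because it would have entered one through the HOTAIR arrays alone. Here a level is the log2 of the processed intensity minus the array's 75th percentile, and a difference is the HOTAIR mean minus the EV mean of such levels. Of 13 renal epithelial markers, 11 were well above background on all 7 arrays, among them PAX8, KRT8 and VIM, while CDH1 and CDH6 were on none. Of 8 endothelial markers 0 were tested, and of 6 blood cell markers on the array 1 was (CD14). Of 5 podocyte markers 2 were tested, with the podocyte factor WT1 well above background on no array. Of 10 fibroblast and pericyte markers 5 were tested (THY1, S100A4, TWIST2, DES and RGS5). Of the others, PDGFRB, FAP, TCF21 and CSPG4 were well above background on no array, and PDGFRA on 0 EV and 2 HOTAIR arrays. The summed level of the fibroblast and pericyte markers, in multiples of the 75th percentile, lay between 11.7 and 16.8 over EV arrays and between 13.7 and 15.4 over HOTAIR arrays. That of the renal epithelial markers lay between 352 and 427 in EV and between 355 and 376 in HOTAIR. In RNA from whole cultures, fewer cells of a type and less RNA per cell cannot be told apart.

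All 7 arrays were on 1 slide, read in 1 scan, with EV in slide row 1 and HOTAIR in row 2, so row and group cannot be told apart. Between 48.7% and 52.1% of probes were well above background on each array, and no spot was saturated. EV 2 and HOTAIR 3 stood apart from the other arrays of their groups. Over the 43 tested probes of the matrix genes, the median absolute deviation from the mean of the other arrays of the group was 0.419 on EV 2 and 0.302 on HOTAIR 3, against 0.137 to 0.185 on the other 5 arrays. Over all 20419 tested probes these were 0.298 and 0.218. EV 2 lay above every other EV array at 20 of the 43 probes and below at 17. HOTAIR 3 lay above both other HOTAIR arrays at 20 and below at 19. The same counts were 9 and 11 on EV 1, 6 and 6 on EV 3, and 8 and 9 on EV 4. They were 11 and 15 on HOTAIR 1 and 12 and 9 on HOTAIR 2. In groups this small an array is often outermost, and these counts were not made over all tested probes.

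Of the 50 genes, 35 were detected well above background throughout EV, throughout HOTAIR or both, and were tested, 34 of them on all 7 arrays. Another 13 were well above background on no array with any of their probes. These were COL1A1, COL1A2 and COL3A1, which form the main interstitial collagen fibrils, COL4A3, COL4A6, COL6A3, COL13A1, LAMA4, POSTN, FBN2, and the small leucine-rich proteoglycans LUM, DCN and BGN. FBN1 passed on 0 of 4 EV and 2 of 3 HOTAIR arrays and THBS2 on 1 of 4 and 1 of 3, which left both untested. The levels of genes not above background are bounds, not measurements.

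No tested matrix gene passed an adjusted p of 0.05 in limma (0 of 35), where 0.167% of all 20419 tested probes did (34 probes). At an unadjusted p of 0.05 limma gave 1 of 35 (2.86%), NID2, beside 5.85% of all tested probes. The rank product named in the methods gave 0 of 35 at an estimated proportion of false positives under 0.05, beside 0.421% of all tested probes. The HOTAIR arrays lay wholly on 1 side of the EV arrays for 3 of 35 genes (8.57%), NID1 and NID2 above and LAMA2 below, beside 7.70% of all tested probes, so that this share was close to the background. The median difference was 0.01 over the 35 genes and 0.01 over all tested probes, with 19 genes higher and 16 lower in HOTAIR. The median absolute difference was 0.17 over the 35 genes and 0.13 over all tested probes. Differences ran from −0.32 for THBS1 to 0.80 for NID2, and the 95% intervals of 33 of the 35 genes lay within −1 and 1, of 16 within −0.5 and 0.5.

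**Figure D1:**
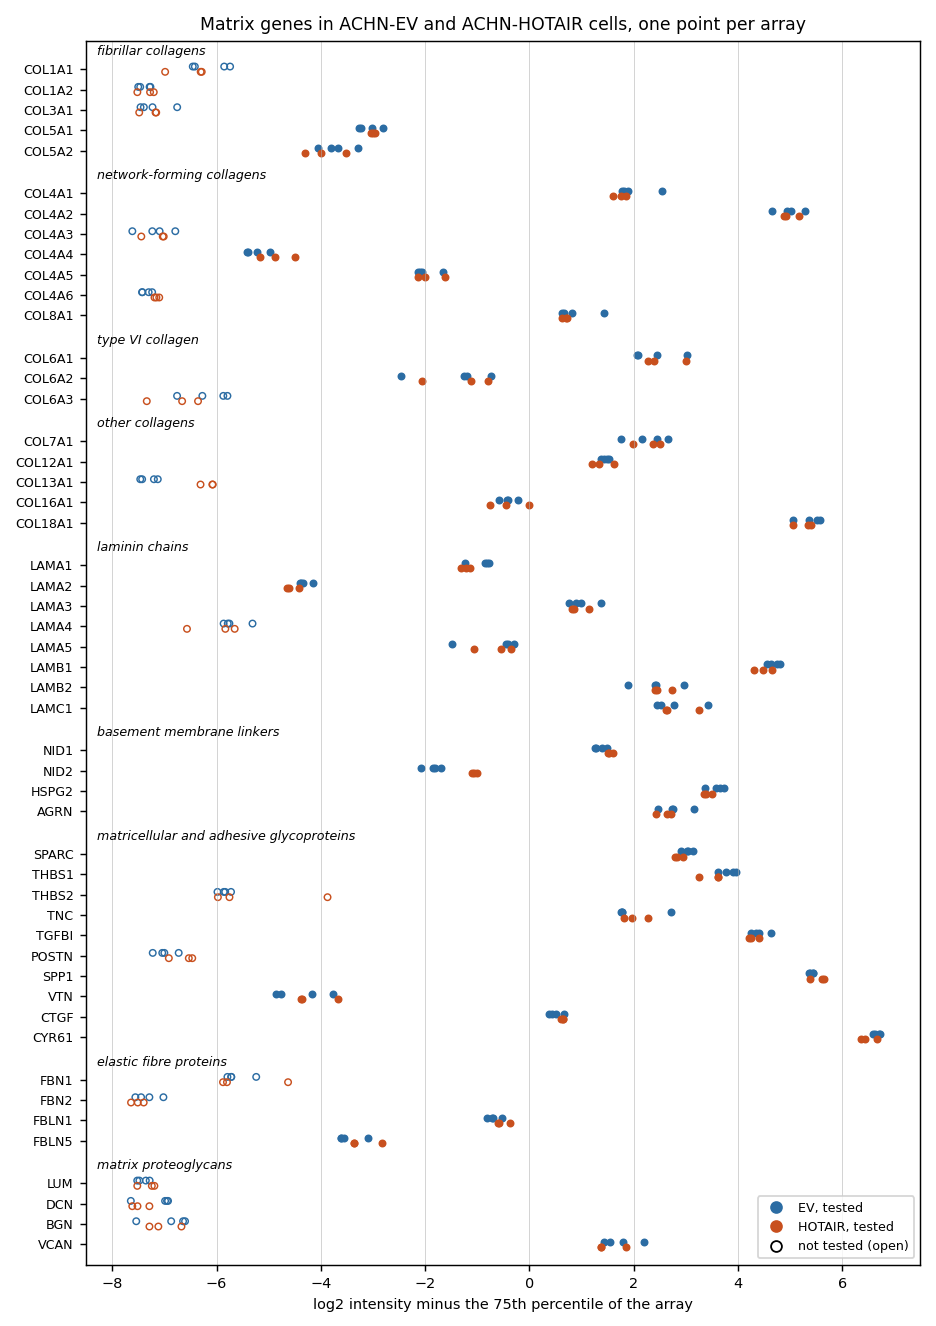
Level of each of the 50 matrix genes on each array, as log2 intensity minus the 75th percentile of the array (horizontal axis), with 4 EV arrays in blue and 3 HOTAIR arrays in orange, grouped by role. Filled points are the 35 tested genes and open points the 15 that were not tested, and positions of different genes are not comparable because each has its own probe.

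**Figure D2:**
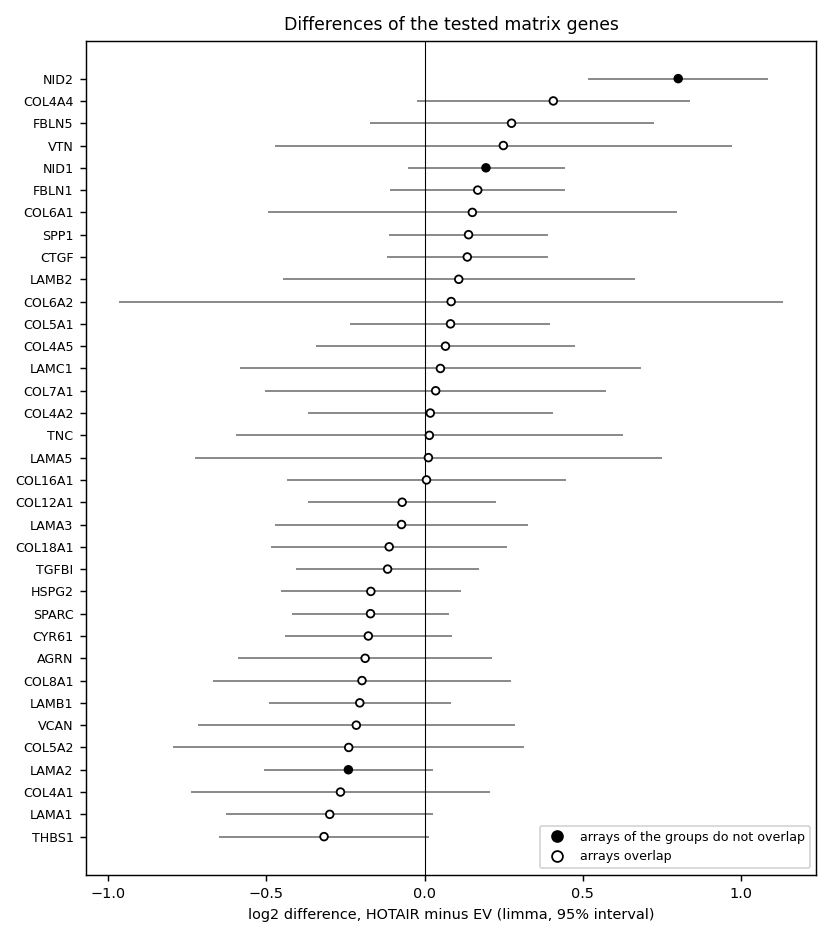
Difference of each of the 35 tested genes (log2, HOTAIR minus EV), with limma's 95% interval as a line. Filled points mark NID2, NID1 and LAMA2, the 3 genes whose arrays do not overlap between the groups, and NID2 at 0.80 is the only gene whose interval does not reach 0.

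The basement membrane linkers held the member that differed most. NID2 encodes nidogen-2, which joins laminin to type IV collagen, and its probe lies at chr14:52471731-52471790 on the minus strand of hg19. Its level was −1.85, −2.08, −1.80 and −1.69 on EV 1 to EV 4 and −1.10, −1.01 and −1.05 on HOTAIR 1 to HOTAIR 3. All 3 HOTAIR arrays were above all 4 EV arrays, and the gap between the groups was wider than the range within either. The difference was 0.80 (SE 0.12, limma p = 0.000222), with an adjusted p of 0.0845 over all tested probes and an exact two-sided permutation p of 0.0286, the smallest that 35 splits of the arrays allow. It passed the adjusted p under normexp background correction (0.69, adjusted p = 0.0477) and with limma array weights (0.78, adjusted p = 0.00421), and without EV 2 and HOTAIR 3 the difference was 0.73 (adjusted p = 0.158). Over the 18 alternatives that gave NID2 a difference, it lay between 0.69 and 0.86 and the limma adjusted p between 0.00421 and 0.489.

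NID1, which encodes the other nidogen, had levels of 1.39, 1.50, 1.26 and 1.27 on the EV arrays and 1.51, 1.53 and 1.61 on the HOTAIR arrays. The lowest HOTAIR array was above the highest EV array by less than the range of either group, and the groups overlapped when arrays were scaled by the median of detected probes or not scaled. The difference was 0.19 (SE 0.11, limma adjusted p = 0.932), with an exact permutation p of 0.0571. HSPG2, which encodes perlecan, was at 3.58 ± 0.16 in EV and 3.41 ± 0.07 in HOTAIR, a difference of −0.17. AGRN, which encodes agrin, was at 2.78 ± 0.28 and 2.59 ± 0.15, a difference of −0.19, and for both genes the arrays of the groups overlapped.

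**Figure D3:**
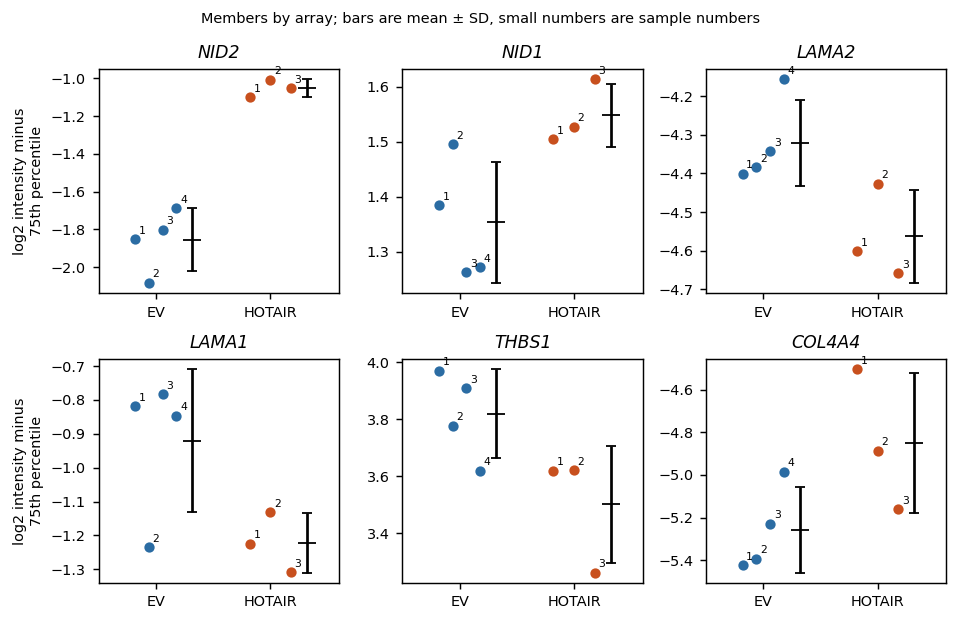
Level of 6 matrix genes on each array (log2 intensity minus the 75th percentile of the array, with a separate vertical axis per gene), with the mean ± SD beside the points and the sample number at each point. NID2, NID1 and LAMA2 show no overlap between the groups, EV 2 lies among the HOTAIR arrays for LAMA1, and EV 4 lies level with HOTAIR 1 and 2 for THBS1.

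Of the 8 laminin chains, 7 were tested and LAMA4 was on no array. LAMA2, the alpha chain of the laminin of muscle basement membranes, had levels of −4.40, −4.38, −4.34 and −4.16 in EV and −4.60, −4.43 and −4.66 in HOTAIR. HOTAIR 2 lay just below EV 1, and the groups did not overlap here but did under normexp correction and in the deposited table without scaling. The difference was −0.24 (SE 0.12, limma adjusted p = 0.906; exact permutation p = 0.0286). It was −0.10 under normexp, −0.16 with array weights and −0.40 after quantile normalization, and this probe has no hg19 coordinates in the array's annotation. LAMA1, the alpha chain of the laminin of early embryonic basement membranes, had levels of −0.82, −1.24, −0.78 and −0.85 in EV and −1.22, −1.13 and −1.31 in HOTAIR. EV 2 lay among the HOTAIR arrays and the other 3 EV arrays above them. The difference was −0.30 (SE 0.14, limma adjusted p = 0.898), and −0.36 (adjusted p = 0.417) without EV 2 and HOTAIR 3.

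The other laminin chains had arrays that overlapped between the groups. LAMA3, the alpha chain of the laminin of epithelial anchorage, differed by −0.07, and LAMA5, the broadly expressed alpha chain of adult basement membranes, by 0.01. LAMB1 was at 4.69 ± 0.11 in EV and 4.48 ± 0.16 in HOTAIR, a difference of −0.21 (adjusted p = 0.943). LAMB2 differed by 0.11 and LAMC1, the gamma chain that most laminins share, by 0.05. LAMA5 was at −1.49 on EV 2 and between −0.46 and −0.29 on the other EV arrays, and HOTAIR 3 was also the lowest of its group at −1.05.

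The network-forming collagens include the 6 type IV chains, whose genes lie in pairs that start from a shared interval and run in opposite directions. The intervals are shown because the genes on both sides were detected in the first pair and on only 1 side in the others. COL4A1 and COL4A2, the chains of the network found in most basement membranes, were both well above background on all 7 arrays. COL4A4 was on 3 of 4 EV and all 3 HOTAIR arrays, while COL4A3 was on none. COL4A5 was on all 7 and COL4A6 on none. The sequences are RefSeq's on GRCh38.p14, plus strand, with the base after the end of the minus-strand gene at the left and the base before the start of the plus-strand gene at the right. For COL4A6 and COL4A5 the interval of 379 bases is longer than the table's window, and the 250 bases next to COL4A5 are shown. Capitals mark CCAAT or ATTGG and GGGCGG or CCGCCC, the same letters on either strand, which do not overlap each other here.
COL4A1 and COL4A2, chr13:110307158-110307283: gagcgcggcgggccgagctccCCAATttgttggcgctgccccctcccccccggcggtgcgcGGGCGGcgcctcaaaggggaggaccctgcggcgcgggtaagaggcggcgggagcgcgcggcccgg
COL4A4 and COL4A3, chr2:227164489-227164623: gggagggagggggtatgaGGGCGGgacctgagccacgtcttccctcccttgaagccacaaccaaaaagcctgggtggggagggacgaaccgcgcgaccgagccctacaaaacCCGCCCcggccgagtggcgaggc
COL4A6 and COL4A5, chrX:108439588-108439837: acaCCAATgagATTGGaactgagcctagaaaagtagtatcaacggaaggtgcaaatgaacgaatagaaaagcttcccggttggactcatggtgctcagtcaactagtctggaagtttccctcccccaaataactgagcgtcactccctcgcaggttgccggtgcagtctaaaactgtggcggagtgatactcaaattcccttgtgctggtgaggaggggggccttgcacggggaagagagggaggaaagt

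The COL4A1 and COL4A2 interval held 1 CCAAT and 1 GGGCGG on either strand, the COL4A4 and COL4A3 interval 0 and 2, and the stretch beside COL4A5 2 and 0. Of the 35116 promoters in the table, CCAAT on either strand was present in 21.1%, 22.1% and 32.0% of upstream stretches of the same 3 lengths, and GGGCGG in 34.6%, 35.5% and 42.6%. TATAAA on either strand was in none of the 3 stretches, and in 5.9%, 6.1% and 11% of those of all promoters. The GC content was 80.2%, 68.1% and 51.2%. These are descriptions of letters, with no reading of binding.

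No type IV chain passed the test, and the arrays of the groups overlapped for each tested chain. COL4A4, a chain of the glomerular network, had levels of −5.42, −5.39, −5.23 and −4.98 in EV and −4.50, −4.89 and −5.16 in HOTAIR. HOTAIR 3 lay among the EV arrays, and HOTAIR 1 and HOTAIR 2 above all of them. The difference was 0.41 (SE 0.19, limma adjusted p = 0.888), and the gene entered the test through the HOTAIR arrays, since 1 EV array was not well above background. It was 0.10 under normexp, 0.26 after quantile normalization, 0.23 without HOTAIR 1 and 0.52 (adjusted p = 0.52) without EV 2 and HOTAIR 3.

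COL4A1 was at 2.01 ± 0.36 in EV and 1.74 ± 0.13 in HOTAIR. EV 2 was the highest array, and the difference was −0.27 with all arrays (adjusted p = 0.984) and −0.14 without EV 2 and HOTAIR 3. COL4A2, across the shared interval, was at 4.98 ± 0.26 and 4.99 ± 0.16, a difference of 0.02. COL4A5 differed by 0.07 and COL8A1, a short-chain collagen of vessel walls, by −0.20 (0.88 ± 0.37 and 0.68 ± 0.05).

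Of the fibrillar collagens, COL1A1, COL1A2 and COL3A1 were on no array and 2 type V chains, which regulate the width of fibrils, were tested. COL5A2 had levels of −3.80, −3.28, −3.67 and −4.06 in EV and −4.31, −4.004 and −3.52 in HOTAIR. The groups overlapped and the difference was −0.24 (SE 0.24, limma adjusted p = 0.993). It was −0.14 under normexp, −0.37 after quantile normalization, −0.06 without HOTAIR 1, −0.10 without EV 2 and −0.45 without HOTAIR 3. COL5A1 differed by 0.08.

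Type VI collagen forms beaded filaments near basement membranes. COL6A1 had levels of 2.09, 3.02, 2.07 and 2.44 in EV and 2.28, 2.39 and 3.00 in HOTAIR. EV 2 and HOTAIR 3 were the highest of their groups. The difference was 0.15 (SE 0.28, limma adjusted p = 0.993) and became −0.07 when HOTAIR 3 alone was left out. COL6A2 was lowest on the same 2 arrays, at −2.47 on EV 2 and −2.06 on HOTAIR 3 against −1.25 to −0.73 on the other 5, and differed by 0.08 with the widest interval of the 35 genes (−0.97 to 1.13). A second COL6A2 probe differed by 0.11. COL6A3 was on no array.

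The other collagens lay close to 0. COL18A1, the source of endostatin and a basement membrane collagen, had levels of 5.52, 5.07, 5.57 and 5.37 in EV and 5.34, 5.41 and 5.05 in HOTAIR. The groups overlapped, and EV 2 and HOTAIR 3 were the lowest of their groups. The difference was −0.11 (SE 0.16, limma adjusted p = 0.993), and with single arrays left out it ran from −0.22 without EV 2 to −0.003 without HOTAIR 3. COL7A1, the anchoring fibril collagen, differed by 0.04, and COL12A1 and COL16A1, which associate with fibrils, by −0.07 and 0.01. A second, dimmer COL12A1 probe had the other sign, with levels of −4.14 in EV and −3.90 in HOTAIR, a difference of 0.24 (adjusted p = 0.973). COL13A1, a transmembrane collagen, was well above background on no array and was not tested. Its readings did not overlap between the groups, and neither did those of COL4A6, also on no array. Readings not above background are bounds, so no difference is read from them.

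Of the 10 matricellular and adhesive glycoproteins, 8 were tested, 4 higher and 4 lower. THBS1, which encodes thrombospondin-1, had levels of 3.97, 3.78, 3.91 and 3.62 in EV and 3.62, 3.62 and 3.26 in HOTAIR. EV 4 lay level with HOTAIR 1 and HOTAIR 2, and HOTAIR 3 was lowest. The difference was −0.32 (SE 0.14, limma adjusted p = 0.878), and −0.21 without EV 2 and HOTAIR 3 and −0.20 without HOTAIR 3 alone. It was −0.37 under normexp (limma adjusted p = 0.715) and −0.385 without EV 4 (limma adjusted p = 0.581). In these settings the THBS1 groups did not overlap, where 7.84% and 14.9% of all tested probes did not. The second, upstream THBS1 probe differed by −0.13 (SE 0.38, adjusted p = 0.993).

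CTGF and CYR61 are CCN proteins and known targets of YAP. CTGF was at 0.50 ± 0.13 and 0.63 ± 0.02, and CYR61 at 6.67 ± 0.07 and 6.49 ± 0.16, so that their differences were 0.14 and −0.18 (adjusted p = 0.993 and 0.949). SPP1, which encodes osteopontin, was at 5.41 ± 0.04 and 5.55 ± 0.15, a difference of 0.14. SPARC, a collagen-binding protein, was at 3.03 ± 0.10 and 2.86 ± 0.08, a difference of −0.17. TGFBI differed by −0.12, and VTN, vitronectin, by 0.25 with an interval from −0.47 to 0.97. TNC, tenascin-C, differed by 0.02 and was at 2.72 on EV 2 against 1.75 to 1.78 on the other EV arrays.

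Of the elastic fibre proteins, FBLN5, which is needed to assemble elastic fibres, had levels of −3.61, −3.09, −3.61 and −3.55 in EV and −3.36, −3.37 and −2.84 in HOTAIR. EV 2 lay among the HOTAIR arrays. The difference was 0.28 (SE 0.19, limma adjusted p = 0.972), and 0.22 (adjusted p = 0.569) without EV 2 and HOTAIR 3. It was 0.10 without HOTAIR 3 alone, 0.18 under normexp and 0.17 after quantile normalization. FBLN1 was at −0.69 ± 0.12 and −0.52 ± 0.13, a difference of 0.17. Of the matrix proteoglycans only VCAN, versican, was tested, at 1.44, 2.20, 1.55 and 1.80 in EV and 1.37, 1.38 and 1.84 in HOTAIR. The groups overlapped, and the difference was −0.22 (SE 0.22, limma adjusted p = 0.993). It was −0.06 without EV 2, −0.14 without HOTAIR 1 or without HOTAIR 2, and −0.37 without HOTAIR 3.

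Without EV 2 and HOTAIR 3, the remaining 3 EV and 2 HOTAIR arrays did not overlap for 14 of 36 tested matrix genes. Of all tested probes, 28.4% then did not overlap. FBN1 was then also tested, through the HOTAIR arrays alone. Of the 14, COL12A1, COL4A1, CYR61, LAMA1, LAMA2, LAMB1, TGFBI and VCAN were lower in HOTAIR, and COL4A4, FBLN5, NID1, NID2, SPP1 and TNC higher. EV 2 and HOTAIR 3 deviated more over the matrix genes (0.419 and 0.302) than over all tested probes (0.298 and 0.218). The count of 14 therefore rests partly on which arrays were left out, and no result about the genes is read from it. At an unadjusted p of 0.05 limma then gave 4 of the 36 (COL4A4, CYR61, LAMA1 and NID2), beside 9.11% of all tested probes, and 0 at the adjusted p, beside 28 probes in all. With all arrays COL4A4 entered the test through the HOTAIR arrays, where it was higher. Its place among the 14 and the 4 is therefore no support for a difference.

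In 6 genes, pairs of tested probes sat on the same transcript, and the distance between them along it is known. The contrast described here is the upstream minus the downstream probe on 1 array, set against the same contrast on the other arrays of the group, so that the brightness of each probe cancels. On EV 2 the upstream probe was lower in relation to the downstream probe for 5 of the 6 genes (all but HSPG2), and on HOTAIR 3 also for 5 of 6 (all but COL16A1). For LAMB2 the contrast was −1.34 on EV 2 and −0.84 on HOTAIR 3 with probes 399 bases apart, for FBLN1 −1.30 and −0.64 (787 bases), and for THBS1 −1.12 and −0.65 (4554 bases). For COL12A1 it was −0.32 and −0.86, for COL16A1 −0.555 and 0.679, and for HSPG2 0.108 and −0.076. The upstream FBLN1 probe was well above background on 3 of 4 EV arrays, and EV 2 was its lowest at −5.29. Its EV 2 contrast may therefore be a bound and not a measurement. Such pairs were compared for the matrix genes only, so no share over other genes stands beside these counts. EV 2 and HOTAIR 3 are the arrays that deviated most over the matrix genes.

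The upstream probes of the 3 genes with the largest contrasts on EV 2 are shown as on the array, because the contrast rests on them. All 60 letters of each are given, counted from base 1 of the transcript in the array's annotation, with no letters in capitals because no motif was searched. THBS1 starts at base 398 (chr15:39874546-39874605, plus strand, hg19), LAMB2 at base 5312 (chr3:49159144-49159203, minus strand, hg19), and FBLN1 at base 1438, with no hg19 coordinates in the annotation. Each has a GC content of 55.0%.
THBS1: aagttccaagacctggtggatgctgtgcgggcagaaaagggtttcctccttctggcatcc
LAMB2: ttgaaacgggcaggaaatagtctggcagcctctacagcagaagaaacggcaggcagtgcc
FBLN1: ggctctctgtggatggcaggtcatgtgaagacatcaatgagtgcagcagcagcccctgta

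On EV 2 the THBS1 upstream probe lay −1.17 from the mean of the other EV arrays and the downstream probe −0.06, and on HOTAIR 3 these were −1.01 and −0.36. For FBLN1 they were −1.32 and −0.02 on EV 2 and −0.76 and −0.12 on HOTAIR 3, and the −1.32 may be a bound, as said above. For LAMB2 the pair moved apart, with −0.62 and 0.72 on EV 2 and −0.54 and 0.29 on HOTAIR 3. The cause was not tested.

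**Figure D4:**
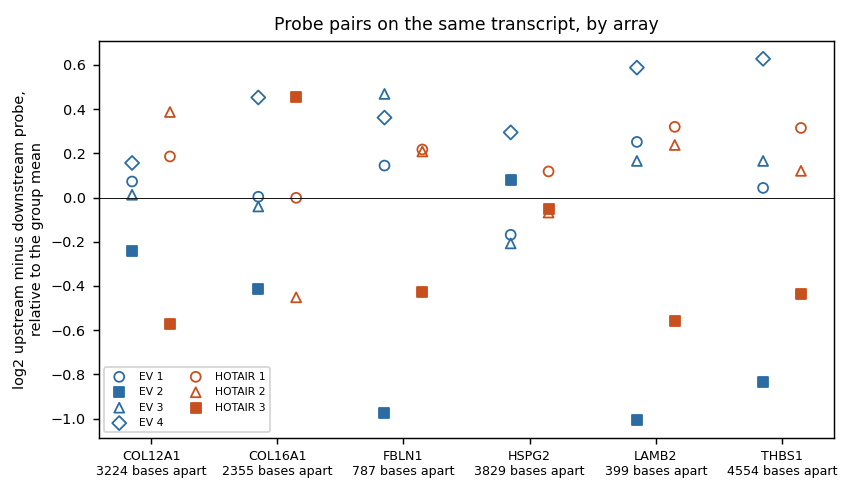
Log2 of the upstream minus the downstream probe for 6 genes with probe pairs on the same transcript, relative to the mean of the array's own group (vertical axis), for each of 4 EV and 3 HOTAIR arrays. Filled squares are EV 2 and HOTAIR 3, which lie below the rest for LAMB2, FBLN1, THBS1 and COL12A1. The FBLN1 point of EV 2 may be a bound.

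The genes around these chains are those that fold, cross-link and bind them, and 0 of the tested genes in the 4 lists passed an adjusted p of 0.05 (limma). In the list of collagen folding, secretion and crosslinking, 25 of 29 were tested, 5 had an unadjusted p under 0.05 (5.85% of all tested probes had), and 6 had arrays that did not overlap (4 higher, 2 lower), beside 7.70% of all tested probes. The 5, named after their values were seen, were LOXL4 (−0.36) and LOXL3 (−0.40), lysyl oxidases that crosslink collagen, PCOLCE (0.37) and PCOLCE2 (0.36), which enhance the trimming of procollagen, and TGM2 (0.30), a transglutaminase. In the list of other matrix chains and glycoproteins, 25 of 52 were tested, 6 had an unadjusted p under 0.05, and 6 had arrays that did not overlap (4 higher, 2 lower). In the list of matrix receptors, 11 of 15 were tested, 0 had an unadjusted p under 0.05 and 1 was without overlap, DDR1, a collagen receptor, at 0.21. In the list of CCN genes and genes responsive to YAP or TGF-beta, 15 of the 17 on the array were tested, and 1, TGFB2 at −0.45, had an unadjusted p under 0.05. The median differences of the 4 lists were 0.02, 0.04, 0.03 and −0.05.

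The 3 genes of the lists with the lowest p were in the list of other matrix chains. FRAS1, an epithelial basement membrane protein, was at −3.10 ± 0.17 in EV and −2.36 ± 0.25 in HOTAIR, a difference of 0.75 (SE 0.16, limma adjusted p = 0.223). LAMC3, a laminin gamma chain, was at −4.06 ± 0.33 and −3.11 ± 0.26, a difference of 0.95 (SE 0.21, limma adjusted p = 0.245). MATN2, matrilin-2, was at 0.22 ± 0.15 and −0.27 ± 0.14, a difference of −0.49 (SE 0.13, limma adjusted p = 0.435). For all 3 the arrays of the groups did not overlap, as for 7.70% of all tested probes. They were picked by their p from the same values, so this adds nothing to the p.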

How the data were processed

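Total RNA of 7 ACHN samples was labelled with Cy3, and each sample was hybridized to its own Agilent SurePrint G3 array. The authors extracted the images with Agilent Feature Extraction (version 10.7.3.1, from the submitters' processing notes) and deposited for each array the processed intensity of every spot, which is background-subtracted, together with outlier and background calls. The deposited table of intensities differed from these values by at most 0.498% and served as an alternative. The arrays' annotation is on hg19.

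With R 4.3.3 and limma 3.58.1, log2 of the processed intensity minus the array's 75th percentile over non-control spots was taken. Outlier spots were left out, replicate spots were averaged, and 14 probes lacking a value on some array were removed. A probe was well above background on an array where at least 50% of its spots were. Probes that met this throughout EV, throughout HOTAIR or both, 20419 of 42405, were tested with limma (lmFit, eBayes, Benjamini-Hochberg). A gene with several tested probes was represented by the brightest. The methods name a log scale, the rank product and the Mann-Whitney U test. The rank product was computed over 12 comparisons of a HOTAIR with an EV array with 100 permutations. The exact Mann-Whitney U test cannot go below p = 0.0571 here. Exact permutation tests used the 35 splits of the arrays. The number of arrays limits the precision.

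The genes and lists were chosen with earlier results of these data known. Members are given on every array if they passed the adjusted p, if their groups did not overlap, or if they had the largest absolute difference among the tested genes of their role. Of the 4 pathway lists the 3 genes with the lowest p are given. Limma was run on simulated arrays with the spread of each tested probe. The rank product was run only on simulated arrays with the same spread for every probe. Its counts at the unequal spreads of real probes were therefore not checked. Alternatives were other background corrections, scalings, filters and moderations, array weights, the replicate block, other probes of a gene, and arrays left out. Promoter sequences are from RefSeq, GRCh38.p14, and its table held a promoter for 39 of the 50 genes.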

Additional observations from a re-analysis of the deposited data

Results flagged for a closer look

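In 5 of the 35 tested matrix genes, 1 EV array lay far from the other 3, with the gap to its neighbour taking up more of the range of the 4 EV arrays than Dixon's 95% critical value, where chance gives about 1 in 20. Over all 20419 tested probes 8.93% were past the same limit. The array was EV 2 in all 5, and at 6.58% of all tested probes. The gap made up 0.971 of the range for TNC, where EV 2 was at 2.72 and the others between 1.75 and 1.78. It was 0.885 for FBLN5 (−3.09 against −3.61 to −3.55), 0.861 for LAMA1 (−1.24 against −0.85 to −0.78), 0.860 for LAMA5 (−1.49 against −0.46 to −0.29) and 0.855 for COL4A1 (2.55 against 1.77 to 1.89). EV 2 was higher than the others for TNC, FBLN5 and COL4A1 and lower for LAMA1 and LAMA5. The HOTAIR group, with 3 arrays, was not examined in this way.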

How the results depend on the processing

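The count of matrix genes past the adjusted p of 0.05 was 0 in limma, in the rank product and in the Mann-Whitney U test, which cannot pass at these group sizes, and 1 (NID2) under normexp correction and with array weights. Over all tested probes the 34 calls became 12 under normexp, 14 with no filter on dim probes, 22 with a filter for all arrays, 324 with array weights and 20 with trend and robust moderation. With the replicate block 0 probes passed the adjusted p (1073 at an unadjusted p under 0.05), and the adjusted p of NID2 was 0.489. Only EV has a number 4, so the block takes EV 4 out of the comparison. The differences with the block were therefore those without EV 4. The median difference of the matrix genes was −0.069 and that of NID2 0.858 in both settings. The deviations of same-numbered arrays from their group means had a correlation of 0.386 for number 1, −0.368 for 2 and −0.406 for 3. The correlation was 0.392 for EV 1 with HOTAIR 2 and 0.619, the highest, for EV 2 with HOTAIR 3. Deviations within a group depend on each other, and EV 2 and HOTAIR 3 deviated most. These correlations therefore cannot decide whether the numbers pair the arrays. The block changed no call of a matrix gene. The count of genes without overlap was 1 of 35 (NID2) in the deposited table without scaling, 5 of 50 with no filter and 14 of 36 without EV 2 and HOTAIR 3, where 5.01%, 5.74% and 28.4% of all tested probes did not overlap. The last of these settings leaves out the arrays that deviated most at the matrix genes. With each array left out in turn, 0 matrix genes passed, the calls over all probes ran from 9 (without EV 1) to 30 (without EV 2), with 12 and 11 without EV 3 and EV 4 and 15, 13 and 21 without HOTAIR 1, 2 and 3. The genes without overlap ran from 3 to 11, with 5 without EV 1 or EV 3 (9.96% and 10.4% of all tested probes), 6 without EV 2 or EV 4 (14% and 14.9%), and 11 of 36 without HOTAIR 3 (21.2%), and the median difference of the matrix genes from −0.08 to 0.023. The difference of COL6A1 then ran from −0.069 (without HOTAIR 3) to 0.356, a change of sign. The other 10 matrix genes given on every array kept their direction under the alternatives that gave them a difference. The cause of the shifts other than that with the block was not tested.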
